A study of Mus musculus with 19 samples.

Results

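Interleukin 1 is an alarm cytokine of innate immunity, and 9 genes of its production and control were followed here in myeloid cells of mouse spleen: Il1a, Il1b, Il1rn, Il1r2, Il1rap, Nlrp3, Nlrp12, Casp1 and Casp4. They were taken by gene symbol from a table of 38887 genes, each on 1 row, and all 9 were among the 12943 genes that passed the expression filter and were tested. RNA was sequenced from myeloid-derived suppressor cells (MDSC), myeloid cells that restrain T cell responses. CD11b+ cells were enriched on beads and sorted, and Ly6G beads are also named for PMN-MDSC. The neutrophil-like form, PMN-MDSC, was taken as CD11b+ Ly6C-intermediate Ly6G+ cells and the monocyte-like form, M-MDSC, as CD11b+ Ly6C-high Ly6G- cells. The groups were newborn PMN-MDSC (5 libraries, mice 7 days old), adult PMN-MDSC (6 libraries, mice 6 to 8 weeks old), newborn M-MDSC (5 libraries, 7 days) and adult M-MDSC (3 libraries, 6 to 8 weeks). The labels name no allele, treatment or strain, and they do not say whether animals were pooled.

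Interleukin 1 alpha and interleukin 1 beta bind the same receptor. Its signal needs the accessory chain IL1RAP, is blocked by the antagonist encoded by Il1rn, and is drained by the decoy receptor IL1R2, which neutrophils carry. Interleukin 1 beta is made as an inactive precursor. It is cut by caspase-1 on inflammasomes, protein platforms built around sensors such as NLRP3, while caspase-4 (caspase-11 in the older mouse literature) senses bacterial lipopolysaccharide inside cells. NLRP12 is a related sensor of granulocytes that has been described both as a brake on inflammatory signalling and as an inflammasome sensor.

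Il1a (ENSMUSG00000027399) and Il1b (ENSMUSG00000027398) lie close together on the minus strand of chromosome 2. In GRCm38, the assembly also called mm10, Il1a spans chr2:129299610-129309972 and Il1b chr2:129364570-129371139. Because both had less RNA in newborn than in adult PMN-MDSC, their promoter windows are shown from RefSeq (GRCm38.p6), 250 bases before to 50 after the start site, 5′ to 3′ on the minus strand, at chr2:129309923-129310222 for Il1a and chr2:129371090-129371389 for Il1b. Capitals mark matches, on either strand, to 4 short motifs of factors active in myeloid cells: GGGA and CC divided by any 4 bases (NF-kB-like), TGANTCA (AP-1-like), TTNNGNAA (C/EBP-like) and GAGGAA (PU.1-like).
Il1a: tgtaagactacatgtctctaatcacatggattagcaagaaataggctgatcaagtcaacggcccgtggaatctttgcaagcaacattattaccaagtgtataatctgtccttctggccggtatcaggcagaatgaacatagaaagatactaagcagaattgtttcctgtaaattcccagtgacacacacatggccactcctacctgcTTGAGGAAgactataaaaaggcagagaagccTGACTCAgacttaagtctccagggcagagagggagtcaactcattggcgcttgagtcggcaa
Il1b: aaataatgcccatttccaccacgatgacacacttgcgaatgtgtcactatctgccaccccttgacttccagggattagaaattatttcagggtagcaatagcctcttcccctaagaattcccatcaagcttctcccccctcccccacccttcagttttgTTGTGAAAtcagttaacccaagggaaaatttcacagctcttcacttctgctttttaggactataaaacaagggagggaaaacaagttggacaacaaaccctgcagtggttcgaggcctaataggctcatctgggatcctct

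The Il1a window held an AP-1-like match beginning at position -12 from the start site, a C/EBP-like match at -43 and, inside that stretch, a PU.1-like match at -41. The Il1b window held 1 match, C/EBP-like, at -91. Of 32851 RefSeq promoter windows of this length, 7.81% held the AP-1-like, 40.7% the C/EBP-like, 28.3% the PU.1-like and 20.7% the NF-kB-like motif. All 9 genes had at least 1 window. An NF-kB-like match was present in windows of Il1rn, Il1rap, Nlrp3 and Casp4, and the Il1r2 window matched none of the 4 motifs. These are matches of letters only.

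The remaining genes lie on other parts of the genome, except that Casp1 (chr9:5298517-5307265) and Casp4 (chr9:5308828-5336783) are neighbours on chromosome 9 and Il1rn (chr2:24336853-24351494) shares chromosome 2. Il1r2 is at chr1:40074079-40125231, Il1rap at chr16:26581704-26730117, Nlrp3 at chr11:59541568-59566956 and Nlrp12 at chr7:3218784-3249740. All are protein coding. Exons of Il1a, Il1b and Il1rap share 222, 25 and 552 bases with an antisense gene, whether strand was used in counting is not stated, and reads of such partners then cannot be told apart. Exons of Nlrp12 also hold 7 microRNA genes.

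Batch 1 (10 libraries) was shallow, with total counts of 827744 to 2965896, and batch 2 (9 libraries) deep, with 14026193 to 45135933. Every group held libraries of both batches. A count of 0 allowed a level of up to 0.990 to 3.29 CPM (counts scaled to 1000000 per TMM-scaled library) in 1 library of batch 1 and 0.0601 to 0.197 CPM in batch 2 (3 counts, counting error only). The batch term passed the threshold for 20 genes, none of them among the 9. The sort marker Ly6g averaged 213 ± 25.1 CPM in newborn PMN-MDSC and 19.6 ± 4.46 in adult PMN-MDSC, against 0.877 ± 0.836 in newborn and 0.277 ± 0.479 in adult M-MDSC, and the monocyte gene Csf1r averaged 954 ± 234 CPM in M-MDSC and 517 ± 63.7 CPM in PMN-MDSC of newborns, and 2289.6 ± 508 CPM in M-MDSC and 696 ± 216 CPM in PMN-MDSC of adults (SD). Between batches, 5 pairs of PMN-MDSC libraries deviated alike from their group and batch means (adult replicates 1 and 32, 2 and 33, 3 and 34; newborn 2 and 37, 3 and 38; correlation across 9088 genes 0.409 to 0.617, against -0.447 to 0.182 for the 10 other pairs). These 5 pairs hold the highest of the correlations compared, so the gap between the 2 ranges is partly set by which pairs were named. Newborn PMN-MDSC had 2 libraries in batch 1, whose deviations are exact opposites. Its other pairs with replicates 37 and 38 therefore mirror the named ones. If the paired libraries share a source, the n of 5 and 6 overstates the evidence. The PMN-MDSC values given below for batch 1 and batch 2 would then not be independent of each other. With these pairs as a random block in limma-voom, the consensus correlation within a pair was 0.812. Kdm5d, a gene of the Y chromosome, was counted in all 10 newborn libraries and in none of the 9 adult ones, so age and the mix of sexes cannot be told apart. The labels do not state that replicates are separate animals. A p-value here therefore reflects library-to-library spread alone, possibly of technical origin.

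Newborn PMN-MDSC carried far less interleukin 1 and Nlrp3 RNA than adult PMN-MDSC. Of the 9 genes, 7 were lower in newborns and none was higher at an adjusted p under 0.05 (edgeR's quasi-likelihood test, Benjamini-Hochberg over all 12943 genes). In the same comparison 47.7% of all genes tested were called, 27.1% as higher and 20.5% as lower. The median log2 fold change was -2.19 over the 9 genes and -0.05 over all genes. The antagonist Il1rn and the sensor Nlrp12 did not pass. These calls treat the libraries as independent. Fewer remained without the batch 1 partners of the pairs that deviated alike, as given below. In sorted bulk cells, fewer cells of a type and less RNA per cell cannot be told apart.

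Il1b, the precursor of interleukin 1 beta, stood at 152, 165, 158, 168 and 89.0 CPM in the newborn libraries (replicates 2, 3, 37, 38 and 39). In the 6 adult libraries it ran from 1496 to 2765 CPM with a median of 2373. Every newborn library lay below every adult one. How many of all genes separate in this way was not counted, here or for the genes below. Newborn Il1b was 14.9-fold lower, -3.90 ± 0.42 on the log2 scale (SE; adjusted p = 4.38e-07). The difference was -3.78 within batch 1 and -3.97 within batch 2, whose PMN-MDSC libraries may share sources as given above.

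Il1a, the sister cytokine that is active without cleavage, was scarce: 0.547, 2.16, 2.17, 2.32 and 1.102 CPM in newborn PMN-MDSC, and 3.00 to 34.0 CPM with a median of 23.8 in adult PMN-MDSC. The groups did not overlap, but the newborn libraries held only 131 counts in all, and the lowest adult value was 5 counts. Its log2 fold change of -3.35 ± 1.203 (SE) had an adjusted p of 0.0282. That call was lost, with values from -2.80 to -3.27, without adult replicate 32 or 33 or newborn replicate 2, 3 or 39. It was also lost within batch 1 (-3.70, adjusted p = 0.0707) and held within batch 2 (-3.41, adjusted p = 0.0141).

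Il1rn, whose product occupies the receptor without signalling, did not differ detectably by age in PMN-MDSC. It had 108, 88.6, 115, 106 and 70.1 CPM in newborns, against 53.4 to 144 CPM with a median of 104 in adults. The groups overlapped throughout. The log2 fold change was -0.03 (95% interval -0.80 to 0.75; adjusted p = 0.960), 0.07 in batch 1 and -0.06 in batch 2. This interval does not reach the age differences estimated for Il1b, Il1a, Il1r2, Il1rap or Nlrp3.

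The ratio of Il1b to Il1rn counts within a library separated the ages in PMN-MDSC. It ran from 1.27 to 1.86 in newborns, with a median of 1.40, and from 16.8 to 28.0 in adults, with a median of 25.5. In M-MDSC the same ratio ranged from 1.46 to 17.7 in newborns and 3.27 to 14 in adults, and the ages overlapped.

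**Figure D1:**
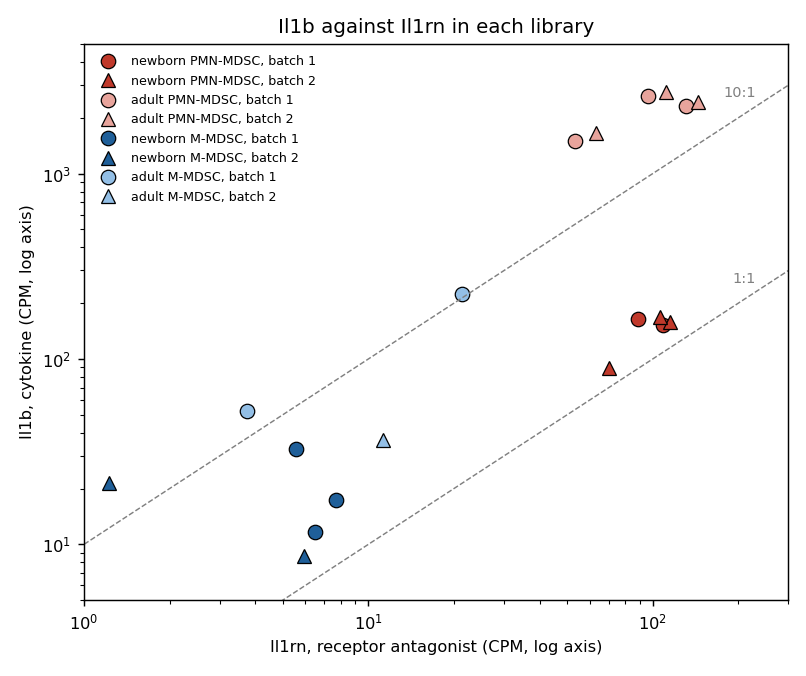
Il1b CPM (vertical, log axis) against Il1rn CPM (horizontal, log axis), 1 point per library, coloured by group and shaped by batch; dashed lines mark ratios of 1:1 and 10:1. Newborn PMN-MDSC (count ratio 1.27 to 1.86) and adult PMN-MDSC (16.8 to 28.0) overlap in Il1rn and stand apart in Il1b.

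The receptor genes were also lower in newborn PMN-MDSC. Il1r2, the decoy receptor, had 76.6, 87.8, 93.3, 97.8 and 51.8 CPM in newborns, against 162 to 880.1 CPM with a median of 529 in adults. The groups did not overlap, and adults spread widely, with replicates 3 and 34 lowest (162 and 173 CPM). On the log2 scale the difference was -2.61 ± 0.78 (SE; adjusted p = 0.00965), -2.53 in batch 1 and -2.66 in batch 2.

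Il1rap, the accessory chain that signalling receptors of the family need, had 31.2, 19.9, 29.5, 20.7 and 26.1 CPM in newborns and 58.8 to 149.8 CPM with a median of 128 in adults. Again no newborn library reached the adult range. The log2 fold change was -2.19 ± 0.33 (SE; adjusted p = 2.15e-05), with -2.12 in batch 1 and -2.14 in batch 2. The signalling receptor Il1r1 itself did not pass the expression filter, at 2.21 ± 1.18 CPM in newborn and 1.63 ± 0.652 CPM in adult PMN-MDSC.

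Nlrp3, the sensor whose inflammasome activates caspase-1, had 89.7, 90.4, 97.8, 92.2 and 57.9 CPM in newborn PMN-MDSC. Adult PMN-MDSC had 232 to 1099.7 CPM with a median of 694. All newborn libraries were below all adult ones, and the adult values came close together within the matched libraries (1079.7 and 1099.7, 689 and 699, 238 and 232 CPM). The log2 fold change was -2.96 ± 0.55 (SE; adjusted p = 2.02e-04), 7.77-fold lower, at -2.91 in batch 1 and -2.96 in batch 2.

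Nlrp12 was not called. It had 106, 105, 117, 116 and 89.4 CPM in newborns and 78.9 to 126 CPM with a median of 113 in adults. The ranges overlapped, and the log2 fold change was 0.02 (95% interval -0.49 to 0.54; adjusted p = 0.952), with its sign depending on the scaling (-0.15 with DESeq2 size factors, -0.22 with upper-quartile scaling). Nlrp3 counts were 0.648 to 0.864 of Nlrp12 counts in newborn libraries and 2.07 to 13.7 times Nlrp12 counts in adult ones.

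The caspases differed less. Casp4 had 23.0, 18.2, 26.0, 20.96 and 22.3 CPM in newborn PMN-MDSC, against 29.4 to 64.3 CPM with a median of 50.6 in adult PMN-MDSC. Casp1, which cuts the interleukin 1 beta precursor, had 15.9, 17.7, 18.0, 19.9 and 16.8 CPM in newborns, against 23.4 to 38.0 CPM with a median of 29.8 in adults. Neither gene's groups overlapped. The log2 fold changes were -1.15 ± 0.35 for Casp4 (SE; adjusted p = 0.0102) and -0.83 ± 0.30 for Casp1 (SE; adjusted p = 0.0276). The Casp1 call was lost in 11 of 32 alternatives, among them leaving out adult replicate 1, 2 or 33 or newborn replicate 2, 3, 37 or 39, where values ran from -0.73 to -0.84, and batch 1 alone (-0.88, adjusted p = 0.231; batch 2: -0.72, adjusted p = 0.0292). The Casp4 call was lost in batch 1 alone (-1.09, adjusted p = 0.122) and held in batch 2 (-1.16, adjusted p = 0.0211).

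Without the batch 1 partners of the matched libraries, Il1b (-3.99), Nlrp3 (-2.98) and Il1rap (-2.16) were still called lower, 3 of the 9, where 7.59% of 15926 genes were called lower. Il1a, Il1r2, Casp1 and Casp4 had values of -3.43, -2.67, -0.73 and -1.18 and were not called. With matched libraries as a random block in limma-voom, 5 of the 9 were called lower against 12.4% of all genes: the same 3, Il1r2 (-2.41) and Casp4 (-1.24).

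Other gene groups changed with age in PMN-MDSC as well. The list of early response and heat shock genes, which respond quickly to stimulation and stress, had 1 of 16 members higher and 13 lower in newborns, with a summed level of 2446 to 3641 CPM in newborns and 6362 to 12136 CPM in adults. Adult replicates 3 and 34 had the lowest adult sums, 6580 and 6362 CPM. They also had the lowest adult levels of Il1a, Il1b, Il1rn, Il1r2, Il1rap, Nlrp3 and Casp4. Il1rn, at 53.4 and 63.1 CPM in these libraries, was not called between the ages. For Nlrp12 neither replicate was lowest, and for Casp1 only replicate 3 was. B cell markers were lower in 7 of 7, at 282 to 438 CPM in newborns and 2022 to 3337 CPM in adults, and none of the list was at 0. Of 8 neutrophil markers 6 were higher and 1 lower, with sums of 41822 to 47161 CPM in newborns and 7939 to 9330 CPM in adults. Markers of immature neutrophils were higher in 8 of 8, at 68419 to 75109 CPM in newborns and 2031 to 2933 CPM in adults. Erythroid markers were higher for 7 of 8, at 2758 to 5217 CPM in newborns and 94.3 to 415 CPM in adults, and eosinophil markers for 4 of 6, at 287 to 763 CPM in newborns and 49.6 to 107 CPM in adults, where Epx, Ear6 and Ear1 were at 0. Plasma cell markers were lower for 5 of 6, at 451 to 608 CPM in newborns and 1853 to 2816 CPM in adults, and splenic macrophage markers for 4 of 8, at 1360.2 to 1755 CPM in newborns and 1413 to 3092 CPM in adults. Their part in the differences above was not tested.

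**Figure D2:**
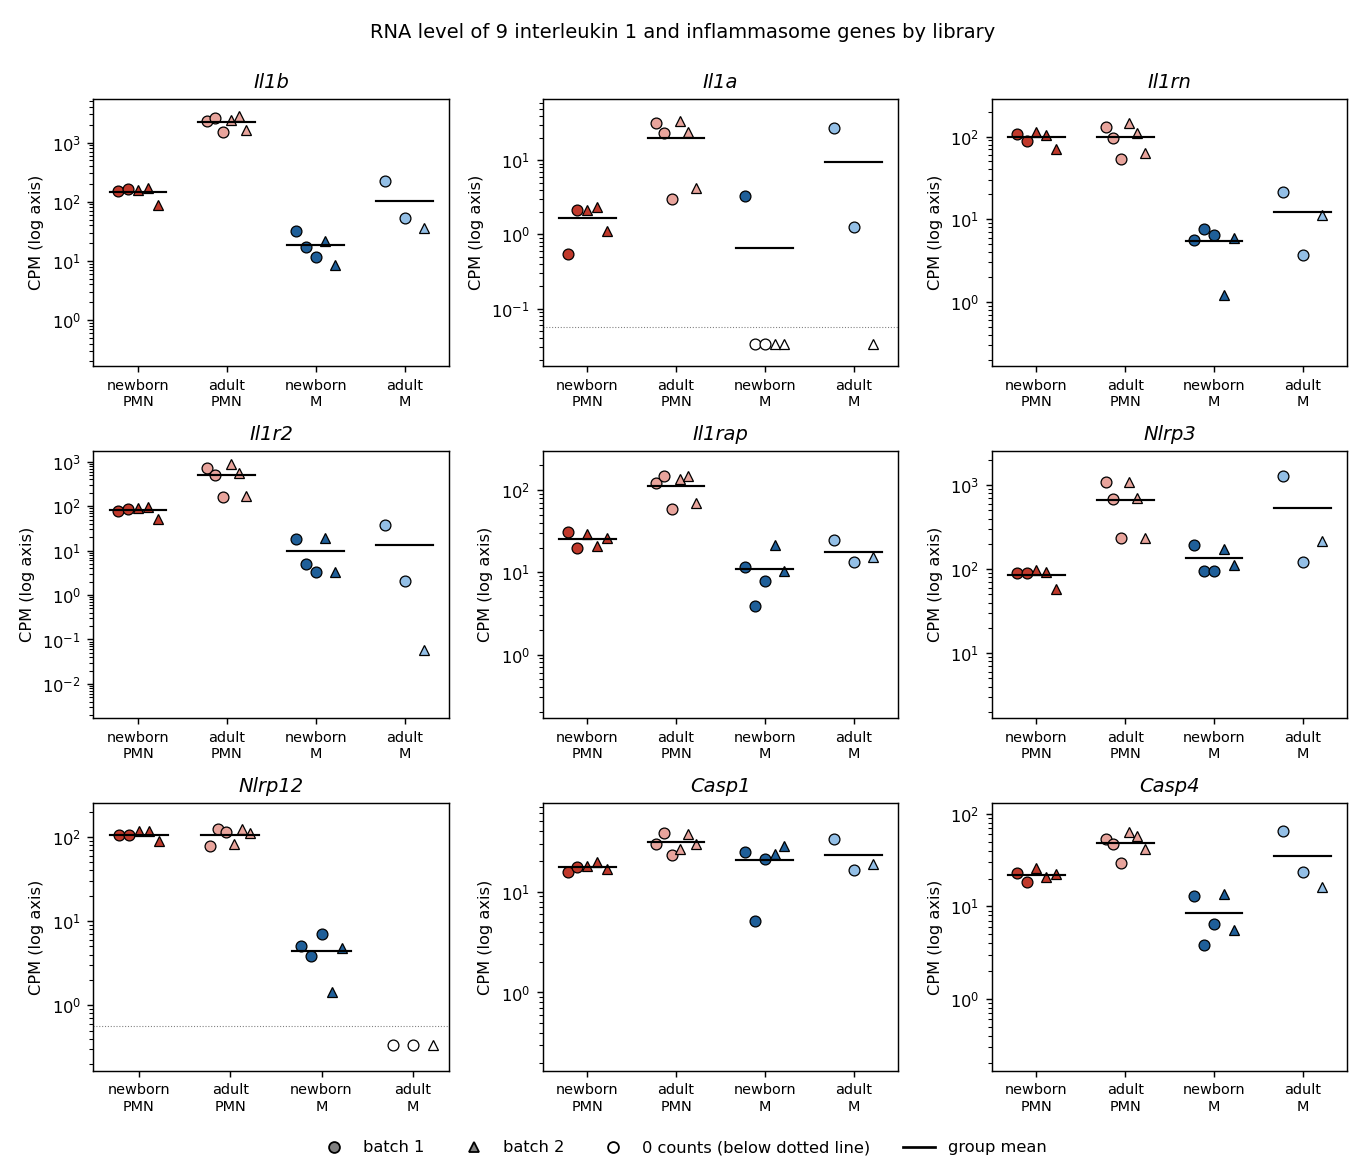
Level of each gene in CPM (log axes, ranges differ between panels) in the 19 libraries by group; circles are batch 1, triangles batch 2, horizontal bars are group means, and open symbols under a dotted line are libraries with 0 counts. Newborn PMN-MDSC lie below all adult PMN-MDSC for 7 genes and among them for Il1rn and Nlrp12, and Nlrp12 has 0 counts in all 3 adult M-MDSC libraries. How many of all genes separate in this way was not counted.

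In M-MDSC, newborns had less Il1b and Casp4 RNA than adults and more Nlrp12 RNA. Nlrp3 was also called lower, a call that rested on adult replicate 1. Of the 9 genes, 3 were called lower and 1 higher. Over all genes 30.2% were called, 15.9% higher and 14.3% lower. The median log2 fold change was -1.27 over the 9 genes, with Nlrp12 at its bound too, and 0.01 over all genes.

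Il1b had 32.5, 17.3, 11.6, 21.5 and 8.70 CPM in newborn M-MDSC (replicates 1, 2, 3, 77 and 79), against 225, 52.3 and 36.7 CPM in adult M-MDSC (replicates 1, 3 and 28). The groups did not overlap, and adult replicate 1 stood far above the other adults. The log2 fold change was -2.41 ± 0.47 (SE; adjusted p = 7.05e-04), 5.32-fold lower. Without adult replicate 1 it was -1.34 (adjusted p = 0.0132). Within batch 1 it was -2.76 and within batch 2, with 1 adult library, -1.25 (adjusted p = 0.120).

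Casp4 had 3.85 to 13.6 CPM in newborns, against 65.3, 23.7 and 16.2 CPM in adults, again without overlap. Its log2 fold change was -1.99 ± 0.43 (SE; adjusted p = 0.00164), -1.23 without adult replicate 1 (adjusted p = 0.0276), -2.47 in batch 1 and -0.73 in batch 2 (adjusted p = 0.270). A fit on the M-MDSC libraries alone gave -1.97 (adjusted p = 0.0815).

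Nlrp3 in M-MDSC rested on the same library. It had 195, 94.9, 96.4, 173 and 112 CPM in newborns, against 1280.6, 123 and 216 CPM in adults, so that 1 adult library lay within the newborn range and another just above it. The log2 fold change of -1.94 ± 0.60 (SE; adjusted p = 0.0205) came to -0.33 without adult replicate 1 (adjusted p = 0.682). It also lost its call without newborn replicate 3 (-1.87, adjusted p = 0.0512) and in batch 2 (-0.56, adjusted p = 0.619; batch 1: -2.45, adjusted p = 0.0312), and 4 other alternatives lost it at -1.09 to -1.92. The early response and heat shock sum of adult replicate 1 was 14317 CPM, against 7938 and 9029 CPM in the other adult M-MDSC libraries and 3207 to 6192 CPM in newborn M-MDSC, and 13 of 16 genes of that list were lower in newborns. B cell markers summed to 57.1 to 118 CPM in newborns and 429 to 1204 CPM in adults, with 7 of 7 lower and none at 0. Splenic macrophage markers were lower for 6 of 8, at 378 to 481 CPM in newborns and 597 to 823 CPM in adults, and T cell markers for 7 of 7, at 8.37 to 32.7 CPM in newborns and 102 to 261 CPM in adults. NK cell markers were lower for 4 of 5 tested and plasma cell markers for 5 of 6. The part of these groups in the M-MDSC results was not tested.

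Nlrp12 had 5.11, 3.85, 6.95, 1.45 and 4.79 CPM in newborn M-MDSC and 0 counts in all 3 adult libraries. Pooled over libraries, newborns had 3.50 CPM, at least 25.2-fold higher than the 0.139 CPM that 3 counts in the adult group would give (adjusted p = 1.16e-05). All 32 alternatives called it. Neutrophil markers were higher in newborn M-MDSC for 5 of 8 genes, with sums of 1178 to 5748 CPM in newborn and 408 to 597 CPM in adult M-MDSC and none of the list at 0. Immature neutrophil markers were higher for 7 of 8, at 4909 to 15092 CPM in newborn and 1140 to 1765 CPM in adult M-MDSC, again with none at 0. Among the newborn libraries Nlrp12 and the neutrophil sum were both highest in replicate 3 and lowest in replicate 77. Replicate 2, with 6 Nlrp12 counts, stood out of that order. The immature neutrophil sum was highest in replicate 2 and lowest in replicate 1. Replicates 1, 2, 3, 77 and 79 had neutrophil sums of 2251, 5733, 5748, 1178 and 1767 CPM and immature neutrophil sums of 4909, 15092, 11373, 5752 and 5927 CPM. The part of neutrophil RNA in this result was not tested.

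The other 5 genes were not called between the ages in M-MDSC. Il1a had 7 counts in newborn replicate 1 and none in the other 4 newborn libraries, against 49, 3 and 0 counts in the adult libraries (26.9, 1.25 and 0 CPM), a log2 fold change of -4.29 (adjusted p = 0.0556) that came to 0.02 without adult replicate 1. Of 30 alternatives 6 called Il1a lower in newborns: no batch term, the DESeq2 Wald test, no expression filter, and leaving out adult replicate 3 or 28 or newborn replicate 1. Il1rn had 1.22 to 7.70 CPM in newborns and 3.74 to 21.4 CPM in adults (-1.27, adjusted p = 0.0731), and was called lower by the DESeq2 Wald test (-1.32, adjusted p = 0.0292) and without adult replicate 3 (-1.64, adjusted p = 0.0244). Il1rap and Casp1 had log2 fold changes of -0.63 (adjusted p = 0.262) and -0.13 (adjusted p = 0.818). Il1r2 spread most, at 18.1, 5.13, 3.24, 19.5 and 3.38 CPM in newborns and 37.8, 2.08 and 0.0576 CPM in adults, and its log2 fold change of 0.04 (adjusted p = 0.988) became 4.76 without adult replicate 1 (adjusted p = 0.0177). Within batch 1 and batch 2 the values were -0.90 and -1.54 for Il1rn, -1.24 and 0.10 for Il1rap, -0.52 and 0.53 for Casp1 and -1.11 and 7.51 for Il1r2, the last on a single adult library with 1 count.

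**Figure D3:**
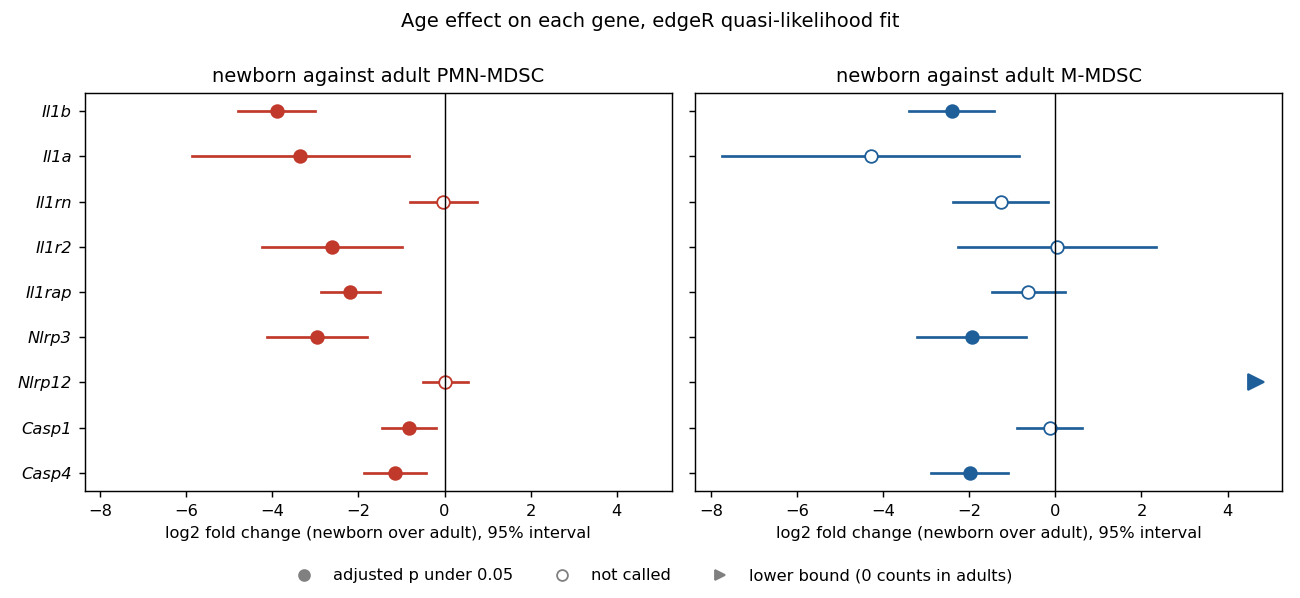
Log2 fold change of newborn over adult (horizontal) with its 95% interval for each gene in PMN-MDSC (left) and M-MDSC (right); filled points passed an adjusted p of 0.05, and the triangle for Nlrp12 marks the lower bound from 0 adult counts. In PMN-MDSC 7 genes lie left of 0 and Il1rn and Nlrp12 on it. Of the genes called in M-MDSC, Il1b, Nlrp3 and Casp4 lie left of 0 and Nlrp12 right of it. The M-MDSC intervals of Il1a and Il1rn also lie left of 0, though neither gene was called.

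The age effect itself was called as different between the cell types for 2 of the 9 genes, Nlrp12 and Il1rap. For both, the log2 fold change of newborn over adult was smaller in PMN-MDSC than in M-MDSC. This test called 18.1% of all genes, 11.5% as higher and 6.61% as lower. For calls in either direction, 2 of 9 is near that share of all genes. Nlrp12 had an age effect of 0.02 in PMN-MDSC and was higher in newborn than in adult M-MDSC. The median difference of age effects was -1.02 over the 9 genes and 0.06 over all genes. Nlrp12 was called in all 31 alternatives (adjusted p = 5.84e-05), and the fitted size of its difference depends on the 0 counts in adult M-MDSC. For Il1rap the age effect was -2.19 in PMN-MDSC and -0.63 in M-MDSC, a difference of -1.56 ± 0.52 (SE; adjusted p = 0.0443). That call was lost in 17 of 31 alternatives, namely without the batch 1 partners (-1.36), with a replicate block (-1.47), in batch 1 alone (-0.88; batch 2: -2.23) and without any 1 of 14 libraries, where it ran from -1.19 to -1.60 (adult PMN-MDSC 1, 2, 32 and 33, all 5 newborn PMN-MDSC, adult M-MDSC 3 and 28, newborn M-MDSC 1, 3 and 77).

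The other 7 differences were not called: Il1b (-1.49, with -1.02 in batch 1 and -2.72 in batch 2; adjusted p = 0.102), Nlrp3 (-1.02; adjusted p = 0.425), Casp1 (-0.69, and -1.25 in batch 2 with an adjusted p of 0.0460; adjusted p = 0.336), Casp4 (0.84; adjusted p = 0.3198), Il1r2 (-2.64, and -10.17 in batch 2 with an adjusted p of 0.0109; adjusted p = 0.189), Il1a (0.94; adjusted p = 0.791) and Il1rn (1.25; adjusted p = 0.195). The Il1b difference was called with the replicate block (-1.60, adjusted p = 0.0404), in limma-voom with the matched-library block (-2.05, adjusted p = 0.0298), by the DESeq2 Wald test (-1.58, adjusted p = 0.0354) and in batch 2 (adjusted p = 0.0206). Adult M-MDSC replicate 1 bears on 3 of the 7: without it Il1b (-2.56, adjusted p = 0.00136), Il1r2 (-7.39, adjusted p = 0.00160) and Nlrp3 (-2.65, adjusted p = 0.0112) were called as more strongly lowered in PMN-MDSC.

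Between the cell types, Il1b, its antagonist, the receptor genes and Nlrp12 were lower in M-MDSC than in PMN-MDSC at both ages, and Nlrp3 and Casp1 were not called at either. In adults, 5 of the 9 were lower in M-MDSC than in PMN-MDSC and none was higher, where 29.1% of all genes were called, 16.7% higher and 12.5% lower. In newborns 6 were lower and none was higher, where 42.0% were called, 18.7% higher and 23.4% lower. The medians were -2.66 in adults and -2.90 in newborns, against -0.13 over all genes at both ages. These comparisons use the same libraries as the age comparisons.

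In adults Nlrp12 had 0 counts in M-MDSC and a pooled 113 CPM in PMN-MDSC, at least 815-fold lower in M-MDSC (adjusted p = 4.02e-09). In newborns it averaged 4.43 ± 2.01 CPM in M-MDSC and 107 ± 11.3 CPM in PMN-MDSC (SD, n = 5 each), a log2 fold change of -4.74 ± 0.32 (adjusted p = 8.08e-09).

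Il1rn was 5.39 ± 2.46 CPM in M-MDSC and 97.5 ± 18.1 CPM in PMN-MDSC of newborns (SD, n = 5 each), a log2 fold change of -4.35 (adjusted p = 8.48e-07). In adults it was 12.1 ± 8.86 CPM in M-MDSC (n = 3) and 99.8 ± 36.2 CPM in PMN-MDSC (n = 6), a log2 fold change of -3.10 (adjusted p = 2.39e-04). Il1b was lower in M-MDSC too, with log2 fold changes of -3.09 in newborns (adjusted p = 1.51e-05) and -4.58 in adults (adjusted p = 6.83e-06). Il1r2 followed with -3.00 in newborns (adjusted p = 0.00819) and -5.65 in adults (adjusted p = 0.00185), the adult value being -10.47 without adult M-MDSC replicate 1. All 32 alternatives called these 4 genes, Nlrp12 included, in both ages.

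Il1rap was also lower in M-MDSC, at -2.66 in adults (adjusted p = 1.23e-04) and -1.10 in newborns (adjusted p = 0.0149), a newborn call lost without the batch 1 partners (-1.02), in limma-voom with the matched-library block (-0.85) and in batch 2 (-0.81, adjusted p = 0.149; batch 1: -1.66). Casp4 was lower in newborn M-MDSC (-1.34, adjusted p = 0.00776) and not called in adults (-0.50, adjusted p = 0.389). In newborns the Casp4 call was lost in batch 1 (-1.35, adjusted p = 0.0785) and held in batch 2 (-1.41), and in adults it was called without adult M-MDSC replicate 1 (-1.34, adjusted p = 0.0193), in limma-voom with the matched-library block (-1.48, adjusted p = 0.0128) and in batch 2 (-1.84, adjusted p = 0.0199; batch 1: 0.03).

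Nlrp3 did not differ detectably between the cell types at either age (newborns 0.62, 95% interval -0.49 to 1.74, adjusted p = 0.365; adults -0.39, 95% interval -1.67 to 0.88, adjusted p = 0.660). In newborns it was called higher in M-MDSC when only the compared groups were fitted (0.74, adjusted p = 0.0255). The adult value was 0.07 in batch 1, -1.75 in batch 2 and, without adult M-MDSC replicate 1, -2.07 (adjusted p = 0.0107). Casp1 was not called either (newborns 0.27, adjusted p = 0.499; adults -0.42, adjusted p = 0.395). Il1a was not called at either age (-2.90, adjusted p = 0.170; -1.96, adjusted p = 0.362). The replicate block called it lower in M-MDSC at both ages (newborns -5.07, adjusted p = 0.0126; adults -4.56, adjusted p = 0.0413). So did batch 2 alone and the fit without the batch 1 partners at both ages, leaving out newborn M-MDSC replicate 1 for newborns and leaving out adult M-MDSC replicate 1 for adults. The M-MDSC libraries of batch 2, and all newborn ones but replicate 1, had 0 Il1a counts, and the adult ones other than replicate 1 held 3, so the sizes of those fits are not given.

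Levels of different genes were compared per kilobase of exon (CPM per kb, the mean over libraries). The length was that of all annotated exons of a gene together, not of the transcripts expressed, and the order depends on it. In newborn PMN-MDSC, for example, Il1rn (5.535 kb) had 97.5 CPM and Nlrp3 (4.057 kb) 85.6 CPM. In newborn PMN-MDSC the order was Il1b 76.7, Il1r2 42.7, Nlrp3 21.1, Il1rn 17.6, Nlrp12 14.1, Casp1 11.8, Casp4 5.96, Il1rap 2.24 and Il1a 0.841 CPM per kb. In adult PMN-MDSC Il1b stood at 1161 ± 273, Il1r2 at 263 ± 153 and Nlrp3 at 166 ± 94.3 CPM per kb, and the other 6 genes at 10.0 to 20.7 CPM per kb. Il1r2 and Nlrp3 did not separate from each other beyond their spread in adults, nor did Il1rn (17.6 ± 3.27) from Nlrp3 (21.1 ± 3.90) in newborns (SD, n = 5). In M-MDSC Nlrp3 led with 33.1 ± 11.5 CPM per kb in newborns and 133 ± 159 in adults. Next came Casp1 in newborns (13.8 ± 6.07) and Il1b in adults (55.0 ± 54.9). The gap to Nlrp3 was larger than the spread in newborns and not in adults. Casp1 stood at 15.3 ± 6.11 in adults and Il1b at 9.61 ± 4.91 in newborns.

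Other genes of the pathway changed in both directions. A list of 53 other genes of interleukin 1 family signalling and inflammasomes held 47 found in the table and 40 that were tested. In PMN-MDSC 13 were higher and 13 lower in newborns than in adults, with a median log2 fold change of -0.18, where 27.1% and 20.5% of all genes were called. In M-MDSC 4 were higher and 11 lower, with a median of -0.08, where 15.9% and 14.3% of all genes were called. Without the batch 1 partners the counts were 9 higher and 8 lower of 41 in PMN-MDSC, where 7.59% of all genes were called lower. In M-MDSC they were 2 and 7, where 2826 of 15926 genes were called in either direction. With matched libraries as a block they were 11 higher and 8 lower of 40 in PMN-MDSC, where 12.4% of all genes were called lower, and 1 and 4 in M-MDSC. Without adult M-MDSC replicate 1, 3 were higher and 4 lower of 41 in M-MDSC. Shares of all genes in M-MDSC are not given here for the block or without that replicate. For the smaller gene groups below, the shares in the main fit are those given above.

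Among inflammasome sensors other than Nlrp3 and Nlrp12, 6 of 10 were lower and 3 higher in newborn PMN-MDSC. Aim2, a sensor of DNA in the cytosol, had 8.45 ± 1.79 CPM in newborns (n = 5), against 41.3 ± 11.3 CPM among adults (n = 6; ± is SD), or -2.25 on the log2 scale (adjusted p = 1.09e-04). Nlrc4, the platform that answers bacterial flagellin, had 8.90 ± 1.92 CPM in newborns and 31.1 ± 4.69 CPM in adults (-1.77, adjusted p = 3.52e-04). Nlrp1b (-2.39), Mefv, which encodes pyrin (-1.69), Nlrp10 (-4.21) and Nlrp1a (-0.79) were the other 4. The 3 that were higher were Naip2 (1.79), Naip6 (1.44) and Naip5 (0.44), which bind the ligands of NLRC4 and are close paralogs whose reads the counting may divide uncertainly. In M-MDSC 3 of 10 sensors were lower (Nlrp1b -1.47, Mefv -1.19, Naip5 -0.46) and none higher. Mefv and Naip5 lost this call in each of the 3 alternatives run on the list, Mefv with -0.33 without adult M-MDSC replicate 1, and Nlrp1b lost it with the matched-library block (-0.75, adjusted p = 0.214). That block called Aim2 higher (1.65, adjusted p = 0.0232). In PMN-MDSC Nlrp1a lost its call without the batch 1 partners and with the block, and Naip5 without the partners.

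The inflammasome adaptor and 2 pore-forming gasdermins were higher in newborn PMN-MDSC, where Nlrp3 was lower. Pycard, which encodes the ASC adaptor that joins sensors to caspase-1, had 26.9 ± 4.35 CPM in newborn PMN-MDSC and 10.2 ± 2.42 CPM in adult PMN-MDSC, a log2 fold change of 1.39 (adjusted p = 3.02e-05). Gsdmd, the gasdermin that caspases cut to open pores, had 118 to 146 CPM in newborns and 49.8 to 60.3 CPM in adults (1.31, adjusted p = 1.81e-07). Dfna5, the older symbol of Gsdme, another gasdermin, had 166 to 181 CPM in newborns and 22.2 to 31.8 CPM in adults (2.68, adjusted p = 1.07e-09). In all 3 the groups did not overlap, and all 3 were also called without the batch 1 partners (1.67, 1.44 and 2.75). In M-MDSC Pycard (0.78, adjusted p = 0.0268) and Dfna5 (1.07, adjusted p = 0.00359) were higher in newborns, while Gsdmd was not called (0.17, adjusted p = 0.465). In M-MDSC the Pycard call was lost in all 3 alternatives (0.49 to 0.74, adjusted p = 0.0697 to 0.224), and the Dfna5 call held there (1.00) but not in limma-voom with the matched-library block (adjusted p = 0.0937).

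Of the same group of 11 tested regulators and effectors, 5 were lower in newborn PMN-MDSC: Gbp2 (-2.82), an interferon-induced GTPase, Panx1 (-2.08), a channel that releases ATP, Ninj1 (-1.91), which ruptures the membrane of dying cells, Txnip (-0.999) and P2rx7 (-0.68), the ATP receptor upstream of NLRP3. Ninj1 and P2rx7 were not called without the batch 1 partners (adjusted p = 0.150 and 0.137) or with the matched-library block (0.2197 and 0.224). Nek7, a partner of NLRP3, had a value of -0.42 (adjusted p = 0.0536). In M-MDSC Gbp2 (-1.62), Panx1 (-1.10) and Txnip (-0.84) were lower. With the block Gbp2 was not called there (adjusted p = 0.0953) and Ninj1 was called lower (adjusted p = 0.00959).

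Among 6 tested receptors and binding proteins, 2 were higher and none lower in newborn PMN-MDSC. Il18rap, the accessory chain of the interleukin 18 receptor, had 506 ± 43.7 CPM in newborns and 131 ± 19.7 CPM in adults (1.95, adjusted p = 9.02e-08), while Il1rap, its counterpart for interleukin 1, was lower as given above. Il18bp, a decoy for interleukin 18, had 36.8 ± 3.26 CPM in newborns and 14.3 ± 2.73 CPM in adults (1.36, adjusted p = 1.78e-05). In M-MDSC Il18rap was higher (0.77) and Il18r1 (-1.55) and Il18bp (-0.71) were lower. The Il18rap and Il18bp calls in M-MDSC were lost in all 3 alternatives (adjusted p = 0.0541 to 0.136), and that of Il18r1 without adult M-MDSC replicate 1 (adjusted p = 0.0596). Il18, the only tested ligand, was not called in PMN-MDSC (-0.94, adjusted p = 0.0959) and was lower in newborn M-MDSC (-1.86, adjusted p = 0.0161), a call lost without adult M-MDSC replicate 1 (adjusted p = 0.0707) and with the block (adjusted p = 0.0546).

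Of 12 genes that carry the receptor's signal, 5 were higher and 2 lower in newborn PMN-MDSC. Irak3, a kinase-like protein that restrains the pathway, had 110 ± 5.40 CPM in newborns and 45.2 ± 10.4 CPM in adults (1.30, adjusted p = 1.23e-04). Tab1 (1.32), Irak4 (0.92), Tollip (0.56) and Irak1 (0.35) were the others that were higher. Irak2 (-0.75) and Peli1 (-0.69) were lower, and the adaptor Myd88 had 141 ± 10.3 CPM in newborns and 142 ± 26.1 CPM in adults (-0.01, 95% interval -0.37 to 0.36). Without the batch 1 partners Irak1, Irak2, Irak4, Tollip and Peli1 were not called (adjusted p = 0.0743 to 0.317), nor, with matched libraries as a block, were Irak1, Irak2, Irak4 and Peli1. In M-MDSC Tab1 was higher (0.92) and Peli1 (-1.06) and Traf6 (-0.83) were lower. None of these 3 was called without adult M-MDSC replicate 1 (Tab1 0.81, Peli1 -0.65, Traf6 -0.44) or with matched libraries as a block, and Traf6 was not called without the batch 1 partners.

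**Figure D4:**
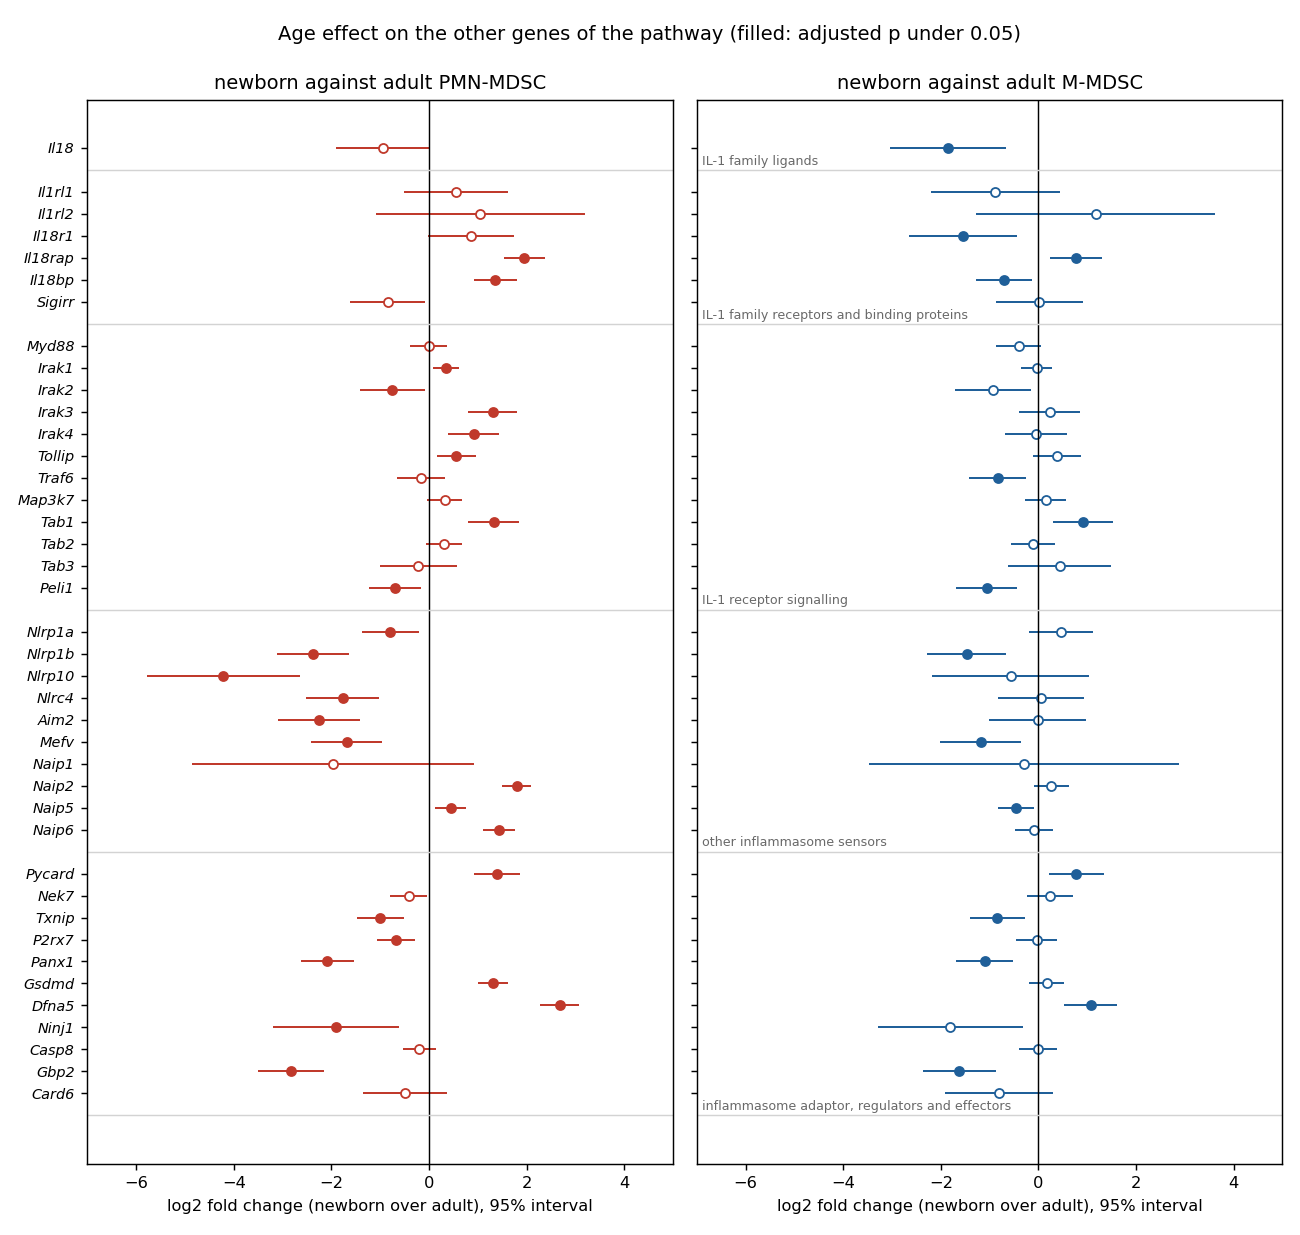
Log2 fold change of newborn over adult (horizontal) with its 95% interval for the 40 other genes of the pathway that were tested, in PMN-MDSC (left) and M-MDSC (right), ordered by role from ligands to effectors; filled points passed an adjusted p of 0.05. In PMN-MDSC 13 are higher and 13 lower, with Aim2 and Nlrc4 left of 0 and Pycard, Gsdmd and Dfna5 right of it; in M-MDSC 4 are higher and 11 lower.

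Across the 19 libraries, the genes whose log2 CPM followed that of Il1b most closely, of 8531 with a mean of at least 10 CPM and after removal of the batch effect, were Gcnt2 (Pearson's r = 0.976), Csf1 (0.972), Stk17b (0.966), Plk3 (0.963) and Amica1 (0.962). Csf1, which encodes the growth factor of macrophages, averaged 20.1 ± 2.85 CPM in newborn and 265 ± 125 CPM in adult PMN-MDSC, against 4.61 ± 3.28 in newborn and 9.12 ± 4.596 in adult M-MDSC. Among the 9 genes, Il1rap was nearest to Il1b (0.951), and the sensors Nlrp3 and Nlrp12 had an r of -0.02 with each other. These r describe 19 libraries that share 4 groups and 2 batches.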

How the data were processed

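RNA-seq estimated counts (expected counts, given as whole numbers) per gene were deposited by the authors in 1 table for the 19 libraries. The submitters' processing notes name RSEM 1.2.3, mm10 and DESeq2; the sources used here give neither aligner nor strand setting. Per the labels' protocols, total RNA was sequenced as single reads of 50 bases. The members and all gene lists were chosen with earlier results of these data known. Counts were filtered by expression (minimum count 10, 12943 of 38887 genes), scaled by TMM and fitted with edgeR 4.0.16 (quasi-likelihood test, group plus batch, all 19 libraries) in R 4.3.3, with Benjamini-Hochberg adjustment over all genes tested and a threshold of 0.05. The fit was tested on simulated data. Batch is the one the labels name. Gene coordinates come from GENCODE M21, which matched 37570 of 38887 rows (96.6%). The text names all 9 members, the genes of the fixed lists that passed the test, and the 5 genes nearest to Il1b by Pearson's r of log2 CPM (prior count 2, batch effect removed). It also names some list genes that were not called between the ages, such as Nek7, Myd88 and Il1r1. Alternatives were limma-voom (limma 3.58.1), DESeq2 1.42.0, other scalings and filters, single batches, a replicate block and leaving out each library. Counts of the other pathway genes under 3 of these were added after the data were seen.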

Additional observations from a re-analysis of the deposited data

Results flagged for a closer look

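In 3 of the 27 gene and group combinations tested (groups of 5 or 6 libraries), 1 library stood apart from the others of its group; chance alone marks about 1 in 20. Il1b had 89.0 CPM in newborn PMN-MDSC replicate 39, where the nearest library of the group had 152 CPM, a gap that is 0.794 of the range (critical value 0.71). Nlrp3 had 57.9 CPM in the same library, against 89.7 CPM in the nearest one (0.797 of the range). This library also had the lowest early response and heat shock sum of its group, 2446 CPM; its part in both values was not tested. Il1a had 3.25 CPM in newborn M-MDSC replicate 1 and 0 counts in the other 4 newborn M-MDSC libraries.

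The age effect differed between the cell types by a test of the difference itself for 2 genes, where 18.1% of all genes were called. For Il1rap the effect in PMN-MDSC minus that in M-MDSC was -1.56 on the log2 scale (adjusted p = 0.0443, edgeR's quasi-likelihood test), a call that 17 alternatives lost and 14 kept. For Nlrp12 the difference was -8.61 (adjusted p = 5.84e-05), a size that depends on how the fit treats the 0 counts of adult M-MDSC.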

How the results depend on the processing

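For Il1b, Il1rap and Nlrp3 the PMN-MDSC age call held in all 32 alternatives. A fit that leaves out 1 library keeps its matched partner where it has one. With the batch 1 partners left out, 3740 genes and 3 members were called in that comparison (6171 and 7 as reported), 968 and 1 for the difference of age effects (2344 and 2) and 2407 genes between cell types in adults (3772). In batch 1 alone these were 3760 and 4, 408 and 1, and 1368, with 3231 between cell types in newborns (5437). In batch 2 alone they were 4254 and 5 for the difference, 6457 in adults, and 2 members in the M-MDSC age comparison (4). With the compared groups only, 9548 genes were called in PMN-MDSC and 1267 genes and 2 members in M-MDSC (3910 and 4). Leaving out 1 library gave 1 to 5 members for the difference, and 5 to 8 members and 2250 to 5036 genes between cell types in adults. The all-gene counts for the difference are not given for these fits, so its 1 to 5 members cannot be set against them. PMN-MDSC calls were 3514 higher and 2657 lower as reported, 2756 and 3552 with upper-quartile scaling, 2982 and 3304 with DESeq2 size factors, and 3168 and 3680 with the DESeq2 Wald test; the all-gene median shifted by -0.24 under the first of these scalings and -0.17 under the second. Upper-quartile scaling gave 2934 and 2528 in place of 2414 and 3023 between cell types in newborns.

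Over all settings 1292 values kept their direction and side of the threshold, 53 lost a call, 32 gained one and 50 changed sign. In the PMN-MDSC age comparison Il1rn was 0.069 in batch 1, 0.11 with the replicate block, 0.0081 without a filter and -0.15 to 0.15 with 1 library left out; Nlrp12 was -0.15 with DESeq2 size factors, -0.22 with upper-quartile scaling, -0.15 with the Wald test, -0.041 in batch 1, -0.012 with the replicate block, -0.040 with a minimum count of 30 and -0.059 to 0.10 with 1 library left out. In M-MDSC Il1r2 was -0.079 without the batch term, -0.023 with DESeq2 size factors, -0.38 with the Wald test, -1.11 in batch 1 and -0.99 to 4.76 with 1 library left out; Il1rap was 0.10 in batch 2; Casp1 was 0.32 with matched libraries as a block, 0.53 in batch 2 and -0.34 to 0.25 with 1 library left out; Il1a was -9.48 (fitted against newborn libraries that all had 0 counts) to 0.019 with 1 library left out, and no batch 2 value is given because both groups had 0 counts. For the difference, Il1a was -1.28 with matched libraries as a block, -0.19 in batch 1 and -3.37 to 6.06 with 1 library left out, and Casp4 was -0.43 in batch 2. Between cell types in adults Nlrp3 was 0.072 and Casp4 0.029 in batch 1, and Nlrp3 was -2.07 to 0.067 with 1 library left out. The cause of these changes was not tested.

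Same-numbered libraries did not deviate alike throughout (correlations -0.057 to 0.307, 2 shared numbers a pair of groups), so the numbers were not shown to pair them. With the replicate block 6059 genes and 7 members were called in PMN-MDSC, 3690 and 3 in M-MDSC, and 2360 genes for the difference. Depth limits Il1a and adult Nlrp12 in M-MDSC, where single libraries of batch 1 cannot show levels under about 1 CPM.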
